A study of Mus musculus with 3 samples.

Results

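Eomes-expressing natural killer (NK) cells infiltrating mouse liver tumours were taken from 3 single-cell libraries by the RNA molecules (UMIs) each cell carried. Members were chosen by these UMIs: a cell needed 200 genes or more, no more than 10% of UMIs from mitochondrial genes, at least 2 UMIs of Ncr1 and Klrb1c together, at most 1 of Cd3d, Cd3e and Cd3g together, at least 1 of Eomes, at most 1 of Mki67 and Top2a together, and 0 of Cd79a and C1qa. Of 36386 cells that passed the limits on genes and mitochondrial UMIs, 826 met this rule, 262 in the DU101 library, 208 in the DU102 library and 356 in the control library. The rule used measured RNA, so the levels of its own genes are no finding.

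The libraries came from C57BL6 mice of a MYC-ON liver tumour model at 18 weeks of age, and live cells bearing CD45, the surface protein of white blood cells, were sorted from the dissociated tumours and profiled with 10x 3' v3 chemistry. Mice were treated with DU101, treated with DU102 or served as control, with 1 library in each group. The labels do not say what the compounds are, at which doses and times they were given, what the control mice received, which promoter drives MYC or how many animals a library pools. With 1 library in a group no difference has a replicate check, no test was made, and every interval below covers counting error only.

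NK cells are innate lymphocytes that kill transformed or infected cells without a rearranged antigen receptor, weighing signals from activating receptors against those from inhibitory receptors that read MHC class I. In mice the Ly49 receptors, encoded by the Klra genes, do much of this reading, and each NK cell carries its own subset of them. Eomes and its relative T-bet direct NK cell development. In the liver Eomes separates circulating-type NK cells from the type 1 innate lymphoid cells (ILC1) that stay in the tissue. Activated NK cells release granzymes and perforin, and secrete interferon gamma and chemokines.

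Members had a median of 6512.5 UMIs in DU101, 8228 in DU102 and 8870 in control. Their UMIs summed to 1914072, 1763545 and 3324704 in the same order, so the control values are the most precise. Eomes was read from a single UMI in 119 of 262 DU101, 89 of 208 DU102 and 146 of 356 control members. Cells that failed only for lack of Eomes numbered 207, 133 and 217. With Ncr1 and Klrb1c at exactly 2 UMIs, 28, 19 and 17 cells were just inside, and with 1 UMI, 22, 15 and 8 were just outside. Of barcodes, 57 were shared by DU101 and DU102, 42 by DU101 and control and 37 by DU102 and control, and 0 members shared one.

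The control library stood apart by sex. Among its members 263 held Xist, the RNA of the inactive X chromosome of female cells, without Y-linked RNA, and 59 held Y-linked RNA without Xist. Xist without Y-linked RNA was found in 1 DU101 and 0 DU102 members, and Y-linked RNA without Xist in 145 and 138. Sex and treatment cannot be told apart against the whole control library, so values against the 59 control cells with Y-linked RNA are given for many of the genes below, in particular where they change a call. Against those 59 cells the median gene had a log2 ratio of 0.11 in DU101 and 0.13 in DU102, where it was 0.00 and 0.02 against all control members.

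The cells carried the RNA of their label. To compare shares of cells at equal depth, each cell was thinned to 2000 UMIs, which left 259 DU101, 206 DU102 and 356 control members. At that depth Gzma, a granzyme, was seen in 88.4% of DU101, 85.0% of DU102 and 84.3% of control members, and Prf1, the pore-forming protein perforin, in 51.4%, 57.3% and 50.6%. Among neutrophils, taken as a cell type that should lack it, Gzma was seen in 2.24%, 3.62% and 7.86%. Trac, the constant part of the T cell receptor alpha chain, was at 7.84, 6.24 and 8.12 CPM (UMIs of a gene scaled to the same total in every library), and at equal depth in 0.772%, 0.971% and 1.97% of members against 60.8%, 55.6% and 54.5% of CD8 T cells. Trac does not stand for the whole list of 12 T cell genes. Together these summed to 622, 964 and 957 CPM, with a median of 4, 7 and 8 UMIs per member. Cxcr6 and Il7r, ILC1 markers, were each under 3% of members at equal depth in every library. Itga1, another ILC1 marker, was seen in 2.70%, 3.88% and 5.62%. Thinning lowers such shares. At full depth 51 of 262 DU101, 43 of 208 DU102 and 85 of 356 control members held a UMI of Itga1, Cxcr6, Il7r or Cd200r1.

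Eomes-expressing NK cells were a smaller share of the cells in both treated libraries. They made up 1.84% of DU101 cells (exact Clopper-Pearson 95% interval 1.62 to 2.07), 1.78% of DU102 cells (1.54 to 2.03) and 3.42% of control cells (3.08 to 3.78). All cells passing the NK part of the rule, with or without Eomes and dividing or not, were 4.37%, 4.25% and 8.40%. Within those cells the members took 42.1% (38.1 to 46.0) in DU101, 41.8% in DU102 and 40.7% in control. At raw UMIs the 3 libraries therefore differed in the share of NK cells, and much less in the part of them that met the rule. The rule depends on depth, and the median kept cell had 4923 UMIs in DU101, 5201.5 in DU102 and 6433 in control. With cells thinned to 2000 UMIs before the rule, the member shares were 0.825%, 0.655% and 1.18%. The part of depth in the difference was not tested.

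Across all genes, a gene was called higher or lower when its summed CPM differed by at least 1.5-fold and the exact Poisson 95% interval of the ratio lay beyond 1, among genes with at least 30 UMIs over both libraries. This is a rule of size and not a test. In DU101 over control 324 of 8214 genes were called higher (3.94%) and 329 lower (4.01%). In DU102 over control 301 of 8210 were called higher (3.67%) and 203 lower (2.47%). In DU101 over DU102 334 of 7447 were called higher (4.49%) and 414 lower (5.56%). With CPM taken over a total free of mitochondrial and ribosomal genes, Gm42418 and Lars2, the split was 245 higher and 472 lower in DU101 over control, and 254 higher and 262 lower in DU102 over control. Against the Y-linked control cells it was 636 higher and 242 lower in DU101, and 499 higher and 152 lower in DU102. When each gene's 3 highest cells were left out, a choice made after seeing the data, it was 199 higher and 460 lower in DU101 over control, and 131 higher and 360 lower in DU102 over control. The share of higher calls thus rose against the Y-linked control cells and fell without the 3 highest cells. That fall is partly built into the setting, since 3 cells are a larger part of 262 or 208 treated members than of 356 control members. The median gene then had a log2 ratio of -0.06 in both comparisons with control. Both comparisons with control share the control cells, and each is given on its own. Within the control library, cells with Xist over cells with Y-linked RNA gave 852 of 6822 genes called in either direction (12.5%). That share was larger than in DU101 over control (7.95%), DU102 over control (6.14%) or DU101 over DU102 (10.0%).

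RNA of other cell types was present in the members and differed between libraries. Of the 12 neutrophil genes, 9 of 11 measured were higher in DU101 than in control and 11 of 12 in DU102 (the other was lower), where 3.94% and 3.67% of all genes were, with sums of 4289, 7404 and 1717 CPM, of which 3 cells held 66.4%, 78.0% and 86.6%. S100a8 was seen at equal depth in 45.9%, 60.7% and 16.0% of members, beside 53.6%, 73.7% and 18.2% of CD8 T cells. Of the 10 B and plasma cell genes, 3 of 4 measured were higher in DU101, with sums of 1516, 281.8 and 261.7 CPM. Igkc, an antibody light chain, was seen in 81.1%, 27.2% and 17.4% of members and in 75.6%, 27.4% and 26.9% of neutrophils. Macrophage and monocyte genes summed to 610.2, 581.8 and 406.1 CPM, and hepatocyte genes to 286.8, 214.9 and 114.9 CPM. T cell genes went the other way in DU101, with 2 of 5 measured lower than in control (4.01% of all genes) and sums of 622, 964 and 957 CPM. Of their UMIs 3 cells held just 5.96%, 4.76% and 2.89%, so this RNA was spread over the members. Whether the members made it themselves was not tested. Red cell genes summed to 0.52, 37.4 and 27.1 CPM, and genes of plasmacytoid dendritic cells, basophils and other innate lymphoid cells to 61.1, 26.1 and 34.0 CPM. Ms4a1, which marks B cells, had 0 UMIs in DU101, 2 in DU102 and 4 in control. The part of this RNA in the comparisons below was not tested.

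Among the Ly49 receptor genes called in DU101 over control, Klra8 (Ly49H) had the largest ratio. Klra8 encodes an activating receptor that binds a cytomegalovirus protein, and Klra4 (Ly49D) another activating receptor. Klra1 (Ly49A), Klra3 (Ly49C), Klra7 (Ly49G) and Klra9 (Ly49I) encode inhibitory receptors for MHC class I. The genes lie side by side on chromosome 6 and are similar enough for reads to be assigned to the wrong member, so all values of the family are uncertain to that extent. The promoters of Klra8 and Klra4 are shown because these near copies behaved differently between the libraries. They are 300 base windows from RefSeq on GRCm38.p6, from 250 bases before to 50 after the annotated start, both on the minus strand, Klra8 at chr6:130129849-130130148 and Klra4 at chr6:130067222-130067521. Capitals mark bases that are not identical in their alignment, in which 259 of 301 columns (86.0%) are identical.
Klra8: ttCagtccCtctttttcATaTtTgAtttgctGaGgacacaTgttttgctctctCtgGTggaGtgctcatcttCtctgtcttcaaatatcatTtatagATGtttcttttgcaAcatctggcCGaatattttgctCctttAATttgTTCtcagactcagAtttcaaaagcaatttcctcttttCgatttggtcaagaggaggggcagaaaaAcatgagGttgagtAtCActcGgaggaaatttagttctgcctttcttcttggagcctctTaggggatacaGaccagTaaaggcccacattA
Klra4: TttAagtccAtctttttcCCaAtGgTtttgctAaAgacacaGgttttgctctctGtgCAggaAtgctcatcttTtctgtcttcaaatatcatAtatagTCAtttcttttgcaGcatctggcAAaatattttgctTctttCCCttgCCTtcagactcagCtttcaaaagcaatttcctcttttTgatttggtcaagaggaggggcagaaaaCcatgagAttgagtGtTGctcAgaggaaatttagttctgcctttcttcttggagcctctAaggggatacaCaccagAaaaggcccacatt
In the best alignments of their windows with that of Klra8, identity was 75.8% for Klra7, 50% for Klra3, 49.1% for Klra1 and 46.3% for Klra9.

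Of the 13 Ly49 genes listed, 11 are in the files and 8 were measured in DU101 over control, where 3 were called higher and 1 lower, beside 3.94% and 4.01% of all genes. Klra8 was at 386 CPM in DU101, 205 in DU102 and 137 in control. All 3 Poisson intervals were apart (358 to 414, 185 to 228 and 124 to 150 CPM). It was 2.82-fold higher in DU101 than in control, with a 95% interval of 1.33 to 1.67 on the log2 scale. Its log2 ratio was 0.59 (0.38 to 0.79) in DU102 over control and 0.91 (0.73 to 1.09) in DU101 over DU102. At equal depth a UMI of Klra8 was found in 39.8% of DU101 members (33.8 to 46.0), 22.8% of DU102 members (17.3 to 29.2) and 16.6% of control members (12.9 to 20.9). Neutrophils had it in 0.179%, 0.181% and 0.249%. Against the control cells with Y-linked RNA the log2 ratios were 1.71 in DU101 and 0.80 in DU102. Among cells with a UMI, the mean count at equal depth was 2.11 in DU101, 2.04 in DU102 and 1.86 in control. Such a cell holds at least 1 UMI, so these means cannot weigh the number of cells against the level in each. Without thinning, 738 UMIs lay in 132 DU101 cells, 362 in 75 DU102 cells and 454 in 101 control cells, at unequal depth.

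The inhibitory members did not move as one. Klra3 was at 135 CPM in DU101, 87.3 in DU102 and 71.6 in control, with log2 ratios of 0.91 (0.65 to 1.17) and 0.29 (-0.02 to 0.59) over control and 0.63 for DU101 over DU102. Klra9 was at 140.0, 80.5 and 77.9 CPM, with log2 ratios of 0.85 (0.59 to 1.10), 0.05 (-0.26 to 0.35) and 0.80. Both were called in DU101 and not in DU102 over all control members. Over the Y-linked control cells Klra3 was called in DU101 too, at 0.95, while Klra9 had 0.47 and was not called. Klra1 went the other way, at 68.4, 83.9 and 124 CPM, with a log2 ratio of -0.86 (-1.15 to -0.57) in DU101 over control, which was -0.23 against the control cells with Y-linked RNA. In DU101, 3 cells held 32.1% of its UMIs, and a UMI was found in 6.56%, 14.1% and 17.4% of members at equal depth. Klra7, at 463, 512 and 436 CPM, and the activating Klra4, at 393, 370.3 and 378 CPM, passed the rule in neither treated library. In DU102 over control, Klra8 was the 1 gene called higher of 7 measured and 0 were called lower (3.67% and 2.47% of all genes). In DU101 over DU102, 3 of 7 were called higher (4.49% of all genes), Klra3, Klra8 and Klra9, and 0 lower (5.56%).

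**Figure D1:**
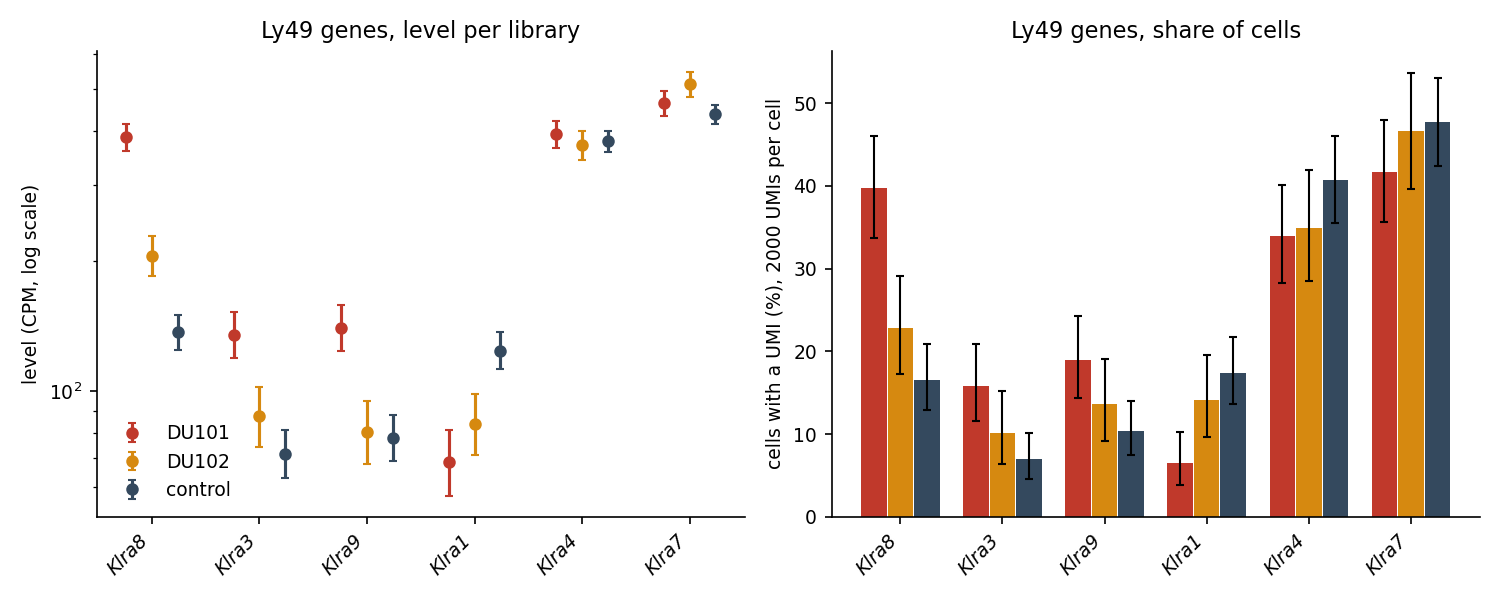
Left, summed CPM of 6 Ly49 genes on a log axis in DU101, DU102 and control members with 95% Poisson intervals; right, the share of members with a UMI of each gene after thinning to 2000 UMIs per cell, with exact Clopper-Pearson 95% intervals. Klra8 stands at 386 CPM in DU101, 205 in DU102 and 137 in control, while the intervals of Klra4 overlap in all 3 libraries.

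With Klra8 counted, cells of DU101 carried RNA of slightly more Ly49 genes each. Klra8 alone was found in 39.8%, 22.8% and 16.6% of members, so the counts below do not show more of the other Ly49 genes. At equal depth the mean was 1.62 Ly49 genes per cell in DU101, 1.45 in DU102 and 1.43 in control. No Ly49 RNA was found in 19.3%, 22.3% and 24.2% of members, and RNA of 3 or more genes in 23.2%, 17.5% and 16.3%. In cells that passed the NK part of the rule without Eomes, 18.8% (13.7 to 24.9), 11.7% (6.71 to 18.6) and 10.7% (6.90 to 15.6) held a UMI of Klra8. DU101 was highest there too, but all 3 intervals overlap. Among dividing NK cells, where DU102 was lowest, the share was 20.1%, 8.33% and 13.6%. Among CD8 T cells it was 0.290%, 0% (0 of 1002 cells, which allows up to 0.367% by the exact interval) and 0.413%.

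The neighbours of the Ly49 genes on chromosome 6 were read in the same way. Between the outermost Klra and Klrb1 genes and the 5 measured genes on each side, at chr6:127446840-134270158, lay 38 measured genes, of which 28 are neither Ly49 genes nor genes of the rule. In DU101 over control 3 of these 28 were called higher (3.94% of all genes) and 1 lower (4.01%), with a median log2 ratio of 0.07. Against control, 2 of 28 in DU102 were higher (3.67%) and 2 lower (2.47%), with a median of -0.08. In DU101 over DU102 4 of 25 were higher (4.49%) and 1 lower (5.56%), with a median of 0.24. Styk1, a kinase-like receptor of this stretch, was at 113, 93.6 and 63.2 CPM, with log2 ratios of 0.84 (0.56 to 1.12) in DU101 and 0.57 (0.26 to 0.87) in DU102 over control. Over the Y-linked control cells these were 0.49 and 0.22, and the gene was called in neither. Klre1, a lectin-like receptor that pairs with other chains, was at 711 CPM in DU101, 433 in DU102 and 510 in control, and was called in DU101 over DU102 with a log2 ratio of 0.71 (0.59 to 0.84). In DU101 it had 0.48 over all control members and 1.18, a call, over the Y-linked control cells. Klrk1 (NKG2D), which recognises stress ligands, was at 595, 471 and 489 CPM. Klrc1 (NKG2A), the inhibitory partner of Klrd1 (CD94), was at 205, 154 and 138 CPM and fell just under the rule in DU101 over control at 1.48-fold, with a log2 ratio of 0.57, and was called over the Y-linked control cells at 0.87. Klrd1 itself was at 676, 573 and 542 CPM. In the list of 15 activating receptors, which leaves out Klra8, none was called against control in either treated library, with medians of 0.25 and 0.00. In DU101 over DU102, 2 were called higher (4.49% of all genes). The list holds Klrb1c, a gene of the rule, whose own ratio is the median of 0.25, so these medians are no finding.

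Among the lineage transcription factors, 2 of 17 measured were higher (3.94% of all genes) and 1 lower (4.01%) in DU101 over control, none in either direction in DU102 over control, and 3 higher (4.49%) in DU101 over DU102. Tbx21, which encodes T-bet, was at 56.4, 55.0 and 73.1 CPM and was not called, with log2 ratios over all control members of -0.37 in DU101 and -0.41 in DU102, and of 0.27 and 0.23 over the Y-linked control cells. Klf2, which sustains the exit receptors of circulating lymphocytes, was at 499, 304 and 323 CPM. Its log2 ratio was 0.63 (0.50 to 0.75) in DU101 over control and 0.72 (0.56 to 0.87) in DU101 over DU102, with -0.09 in DU102 over control. Over the Y-linked control cells Klf2 had 1.47 in DU101 and 0.76 in DU102. Zeb2, a transcriptional repressor that drives late NK maturation, was at 96.7, 62.9 and 76.7 CPM and was called in DU101 over DU102 at 0.62, and in DU101 over the Y-linked control cells at 1.04. Myb, a factor of immature and dividing blood cells, was high in DU102, at 28.7 CPM in DU101, 63.5 in DU102 and 30.1 in control. Its log2 ratio was 1.08 (0.68 to 1.48) in DU102 over control.

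Killing genes differed little. Of 20 measured in DU101 over control none passed the rule in either direction, and of 19 in DU102 over control 2 were lower (2.47% of all genes), with medians of 0.04 and 0.06. Gzma was at 7308 CPM in DU101, 8178 in DU102 and 7279 in control. Gzmb, the granzyme that starts caspase cleavage, was at 864, 1121 and 1107 CPM, and Prf1 at 431, 566 and 476 CPM. Nkg7, which helps granules to release, was at 2012, 1885 and 1779 CPM. Of the 8 log2 ratios over control for these 4 genes, the one farthest from 0 was that of Gzmb in DU101, at -0.36 (-0.44 to -0.27), and DU102 had 0.02. Gzmb was called lower in DU101 over the Y-linked control cells, at -0.79. Serpina3g, a serine and cysteine protease inhibitor from a multigene family and so uncertain in its reads, was lower in DU101, at 137 CPM against 222 in DU102 and 269 in control (log2 ratio -0.98, -1.18 to -0.78, over control).

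Part of the cytokine and chemokine genes, Ccl3 and Ccl4 among them, were lower in DU102. In DU102 over control 5 of 12 measured were called lower (2.47% of all genes) and 0 higher, with a median log2 ratio of -0.51. In DU101 over DU102 6 of 12 were called higher (4.49%), with a median of 0.62. In DU101 over control 2 were higher (3.94%), with a median of 0.01. With Eomes required at 2 UMIs or more, 1 was called lower in DU102 over control (193 of all 6964 genes), and against the Y-linked control cells 3 were, where 2.43% of all genes were. Ccl4, a chemokine that draws other immune cells, was at 1297 CPM in DU101, 467 in DU102 and 1258 in control. Its log2 ratio was -1.43 (-1.54 to -1.32) in DU102 over control, and 0.04 in DU101 over control. At equal depth it was found in 41.3%, 26.7% and 39.9% of members, and in 14.8%, 14.9% and 29.9% of neutrophils, which also make it. Ccl3, its close relative, was at 385, 149 and 313 CPM, with a log2 ratio of -1.08 (-1.28 to -0.88) in DU102 over control, which was -0.41 when Eomes was required at 2 UMIs or more.

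Xcl1, the chemokine that draws cross-presenting dendritic cells, was at 1839 CPM in DU101, 909 in DU102 and 1329 in control. It was called in DU101 over DU102 at a log2 ratio of 1.02 (0.93 to 1.10), and in DU101 over the Y-linked control cells at 1.54. Its DU102 value was -0.55 against all control members and 0.52 against those with Y-linked RNA. Ifng, which encodes interferon gamma, was at 414, 179 and 228 CPM. The log2 ratios were 0.86 (0.72 to 1.01) in DU101 over control, -0.35 (-0.55 to -0.16) in DU102 over control and 1.21 (1.02 to 1.41) in DU101 over DU102. In DU102, 3 cells held 37.5% of its UMIs, and with 0 UMIs of the Cd3 genes required the ratio of DU101 over DU102 was 1.84. Ccl5, a chemokine stored ready in NK cells, was at 6057, 7273 and 6476 CPM and was not called in any comparison.

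**Figure D2:**
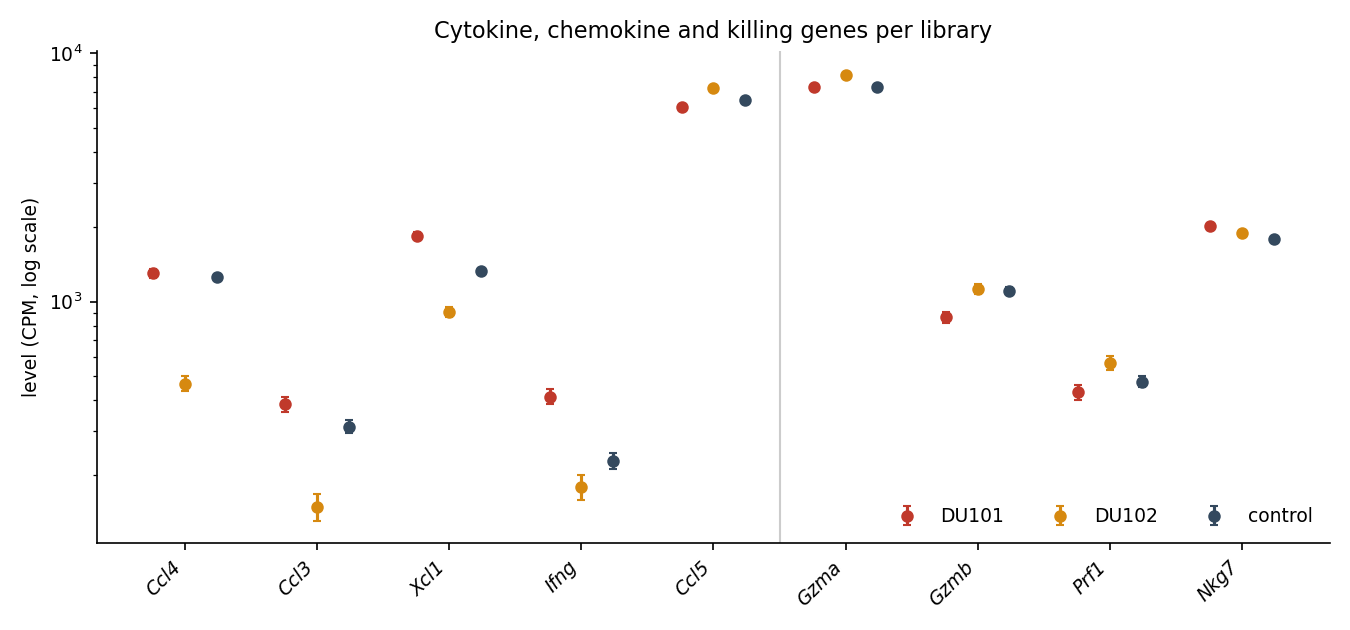
Summed CPM on a log axis, with 95% Poisson intervals, of 5 cytokine and chemokine genes (left) and 4 killing genes (right) in DU101, DU102 and control members. Ccl4, Ccl3, Xcl1 and Ifng have their lowest values in DU102, while Gzma, Prf1 and Nkg7 lie close together in the 3 libraries.

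Maturation and residency genes gave a mixed picture. Of 13 late maturation genes 3 were higher in DU101 over control (3.94% of all genes) and 2 of 12 in DU102 over control (3.67%). Itgam (CD11b), the integrin gained in maturation, was at 47.0, 65.8 and 40.0 CPM and was called in DU102 at a log2 ratio of 0.72 (0.35 to 1.09), but 45.1%, 45.4% and 55.2% of neutrophils held it at equal depth and the part of such cells in this value was not tested. Over the Y-linked control cells it was 1.36. Cd27, which is lost in maturation, was at 104, 82.8 and 81.8 CPM. At equal depth, RNA of Cd27 without Itgam was found in 17.8% of DU101, 15.0% of DU102 and 13.8% of control members, and of Itgam without Cd27 in 5.02%, 8.74% and 4.49%. Ctla2a, a cathepsin inhibitor of the early maturation list, was at 1574, 1089 and 1033 CPM with a log2 ratio of 0.61 (0.54 to 0.68) in DU101 over control, 0.08 over the Y-linked control cells and -0.014 when Y-linked cells were taken in every library.

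Among 13 residency and ILC1 genes, 1 was higher (3.94% of all genes) and 3 were lower (4.01%) in DU101 over control. In DU102 over control 0 were higher and 2 lower (2.47%), and in DU101 over DU102 3 of 11 were higher (4.49%) and 1 lower (5.56%). Cd69, an early activation and retention receptor, was at 394, 218 and 288 CPM and was called in DU101 over DU102 at a log2 ratio of 0.85 (0.67 to 1.03), and in DU101 over the Y-linked control cells at 0.98. Rgs1, which dampens chemokine signalling, was at 802, 528 and 734 CPM and was called in DU101 over DU102 at 0.60 (0.48 to 0.72), and lower in DU102 over the Y-linked control cells at -0.69. Il2rb, the shared receptor chain for interleukins that sustain NK cells, was at 585, 794 and 752 CPM. Cish, the feedback inhibitor of that signal, was low in both treated libraries, at 16.7, 11.9 and 27.4 CPM, with log2 ratios of -0.71 (-1.34 to -0.12) and -1.20 (-1.96 to -0.50) over control.

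Type I interferon-induced genes were higher in DU101. Of the 38 listed, 37 are in the files and 33 were measured, and 15 were called higher (3.94% of all genes) and 0 lower in DU101 over control, with a median log2 ratio of 0.63 where all genes had 0.00. Of the same 33, 6 were higher (3.67%) and 0 lower in DU102 over control with a median of 0.35, and 9 were higher (4.49%) and 0 lower in DU101 over DU102 with a median of 0.30. The summed level was 2060 CPM in DU101, 1492 in DU102 and 1281 in control. Scaled to each cell's own UMIs, the list was at 1321 CPM in the median DU101 cell, 1081 in DU102 and 990.2 in control, and at 4130 CPM, 2639.9 and 2362 at the 90th percentile of cells. Against control cells with Y-linked RNA, 19 were higher in DU101, where 9.98% of all genes were. When cells rich in RNA of other cell types were left out, a choice made after seeing the data, 16 were higher in DU101 over control, where 261 of all 7964 genes were.

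The promoters of 3 genes called higher in DU101 are shown because they hold the letters of the interferon-stimulated response element, to which interferon-activated factors bind. The letters searched were GAAA, NN and GAAA in a row, where N is any base, and TTTC, NN and TTTC for the other strand. Capitals mark the matches, which may overlap. The windows are from RefSeq on GRCm38.p6, all on the minus strand, at chr4:156200769-156201068 for Isg15, chr7:104446076-104446375 for Trim30a and chr17:36032652-36032951 for H2-T23.
Isg15: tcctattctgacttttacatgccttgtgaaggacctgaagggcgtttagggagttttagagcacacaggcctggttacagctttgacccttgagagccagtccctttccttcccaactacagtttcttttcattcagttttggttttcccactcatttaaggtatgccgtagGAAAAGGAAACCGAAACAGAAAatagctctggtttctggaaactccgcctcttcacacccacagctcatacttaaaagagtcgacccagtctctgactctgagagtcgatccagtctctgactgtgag
Trim30a: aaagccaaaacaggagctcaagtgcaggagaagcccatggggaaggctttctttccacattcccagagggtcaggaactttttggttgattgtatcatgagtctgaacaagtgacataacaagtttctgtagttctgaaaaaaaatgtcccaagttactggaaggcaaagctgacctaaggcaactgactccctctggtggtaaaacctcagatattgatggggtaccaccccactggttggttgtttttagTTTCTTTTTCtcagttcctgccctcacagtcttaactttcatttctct
H2-T23: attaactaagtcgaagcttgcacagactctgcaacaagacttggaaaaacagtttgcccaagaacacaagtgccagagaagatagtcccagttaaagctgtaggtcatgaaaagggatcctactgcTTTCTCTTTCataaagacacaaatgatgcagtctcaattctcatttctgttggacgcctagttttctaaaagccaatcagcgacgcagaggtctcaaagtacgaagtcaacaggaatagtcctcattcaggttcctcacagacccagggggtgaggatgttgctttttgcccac
Of the interferon-induced genes, 29 were matched in RefSeq, and 22 of their 34 windows (64.7%) held the letters, as did 1131 of 32851 windows of all genes (3.44%). A match is a description of the sequence. Among MHC class I genes 3 of 10 windows held it.

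Isg15, a ubiquitin-like protein, was at 145 CPM in DU101, 86.8 in DU102 and 55.0 in control. Its log2 ratio was 1.40 (1.13 to 1.68) in DU101 over control and 0.66 (0.34 to 0.97) in DU102 over control, with 29.1%, 32.7% and 24.0% of its UMIs in 3 cells. Without the Eomes requirement these ratios were 0.55 and 0.04. Ifi27l2a, a small interferon-induced membrane protein, was at 219, 47.6 and 69.8 CPM, with log2 ratios of 1.65 (1.41 to 1.89) in DU101 over control and 2.20 (1.86 to 2.56) in DU101 over DU102. Of the Ifi27l2a UMIs 3 cells held 25.3% in DU101, 21.4% in DU102 and 35.8% in control. Ifi27l2a was higher in the control cells with Xist, at 88.7 CPM, than in those with Y-linked RNA, at 24.2 CPM. Against the Y-linked cells its log2 ratio was 3.18 in DU101 and 0.98 in DU102.

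Irf7, the factor that amplifies interferon production, was at 53.3, 27.8 and 23.5 CPM (log2 ratio 1.18, 0.74 to 1.63, in DU101 over control, and 1.97 over the Y-linked control cells). Bst2 (tetherin), which holds budding virus at the surface, was at 165, 79.4 and 86.3 CPM with 0.94 (0.70 to 1.17) in DU101 and -0.12 in DU102 over control. Rtp4, a chaperone of receptor traffic, was called in both, at 31.3, 21.5 and 12.3 CPM with 1.35 in DU101 and 0.81 in DU102, and 2.05 and 1.51 over the Y-linked control cells. Trim30a, a regulator of inflammatory signalling, at 118, 99.2 and 77.0 CPM, was called in DU101 with 0.61 (0.35 to 0.87) and not in DU102 with 0.37. It was called in both over the Y-linked control cells, at 1.24 and 0.99. Genes induced mainly by interferon gamma did not follow, with 2 of 21 higher (3.94% of all genes) and 1 lower (4.01%) in DU101 over control and a median of 0.03.

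MHC class I genes split by member. Of 9 measured, 2 were called higher in DU101 over control (3.94% of all genes), none in DU102 over control, and 2 in DU101 over DU102 (4.49%). H2-T23 (Qa-1), the ligand of the CD94 and NKG2A pair, was at 202 CPM in DU101, 111 in DU102 and 131 in control, with log2 ratios of 0.62 (0.42 to 0.83) in DU101 and -0.25 in DU102 over control. H2-T22, a non-classical relative, was at 95.1, 47.6 and 54.7 CPM with 0.80 (0.49 to 1.10) and -0.20. These genes have near copies, so their reads are uncertain. H2-Eb1, an MHC class II gene of antigen-presenting cells, was at 81.0, 5.10 and 21.4 CPM, but 3 cells held 60.6% of its UMIs in DU101, and with predicted doublets removed its log2 ratio in DU101 over control was 0.65 where it was 1.92 with them.

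**Figure D3:**
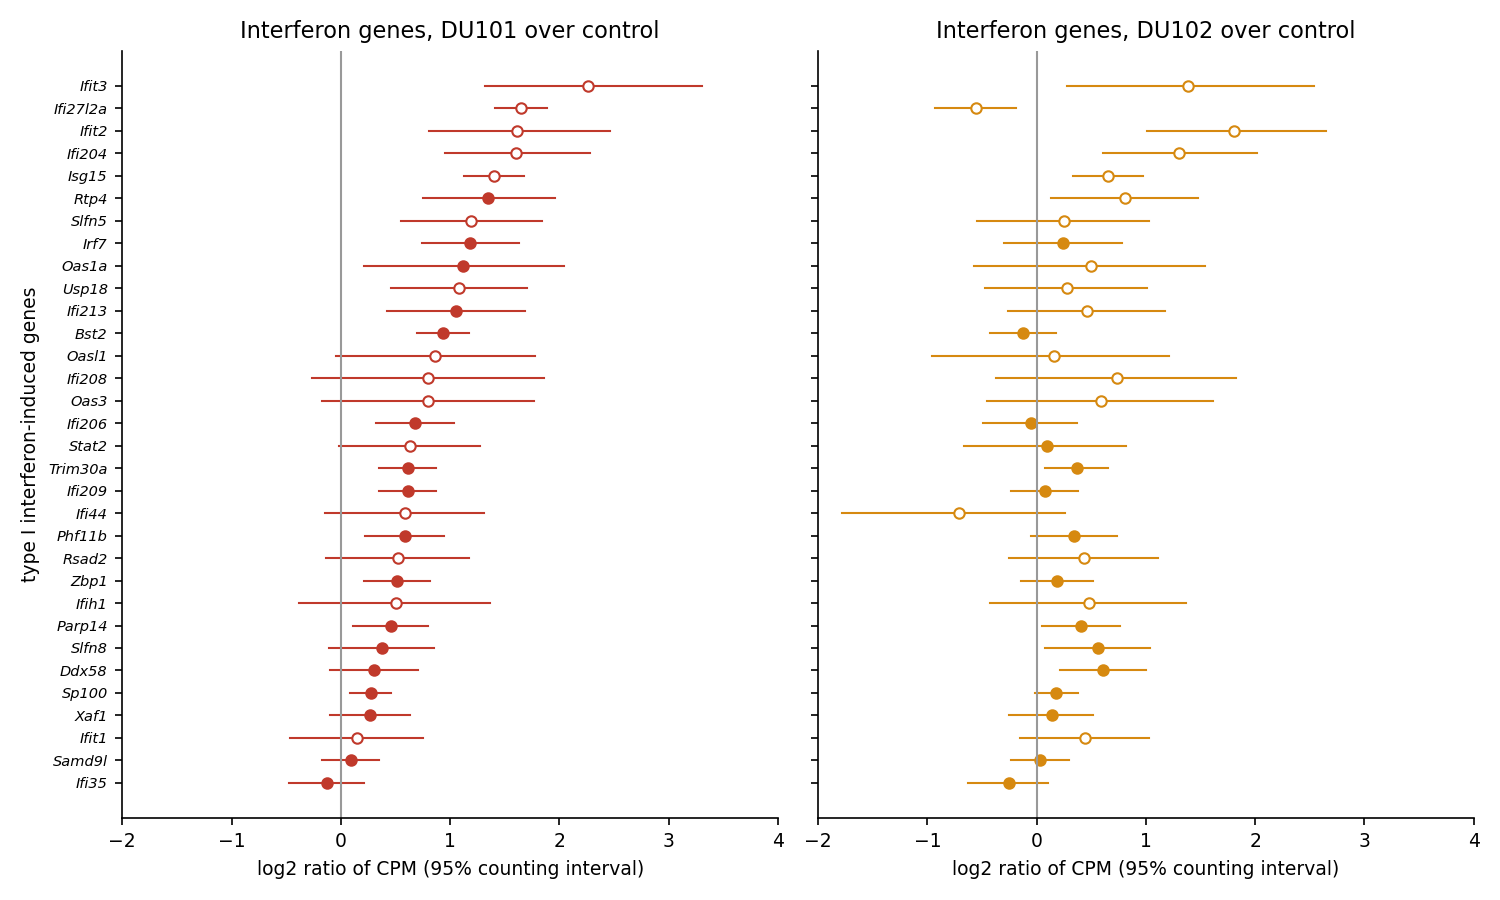
Log2 ratio with 95% interval for 32 of 33 measured type I interferon-induced genes, DU101 over control (left panel) and DU102 over control (right panel). Open circles mark genes of which 3 cells held over 25% of the UMIs in either library; the median of the 33 is 0.63 in DU101 and 0.35 in DU102.

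Heat shock genes were lower in DU102 and depended on which control cells were used. These chaperones fold proteins under stress. Of 12 measured, 1 was higher in DU101 over control (3.94% of all genes), 5 were lower in DU102 over control (2.47%) and 11 were higher in DU101 over DU102 (4.49%), with median log2 ratios of 0.27, -0.57 and 0.87. The summed level was 12088 CPM in DU101, 6759.7 in DU102 and 9991 in control, and the median cell, scaled to its own UMIs, was at 10928 CPM, 6043 and 9015. Hspa5, the chaperone of the endoplasmic reticulum, was the 1 gene not called in DU101 over DU102, at 508, 391.8 and 486 CPM. Over the Y-linked control cells 1 gene of the list was lower in DU102, where 2.43% of all genes were. With cells rich in RNA of other cell types left out, 6 were lower in DU102 over control (208 of all 7925 genes) and 11 higher in DU101 over DU102 (273 of 6947).

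The promoters of Hsph1 and Hspe1 are shown because, with that of Hspd1, they hold the letters of the heat shock element, to which heat shock factor binds. The letters searched were GAA, NN, TTC, NN and GAA in a row, and TTC, NN, GAA, NN and TTC for the other strand. Capitals mark the matches, which may overlap. The RefSeq windows on GRCm38.p6 are chr5:149636266-149636565 on the minus strand for Hsph1 and chr1:55087898-55088197 on the plus strand for Hspe1.
Hsph1: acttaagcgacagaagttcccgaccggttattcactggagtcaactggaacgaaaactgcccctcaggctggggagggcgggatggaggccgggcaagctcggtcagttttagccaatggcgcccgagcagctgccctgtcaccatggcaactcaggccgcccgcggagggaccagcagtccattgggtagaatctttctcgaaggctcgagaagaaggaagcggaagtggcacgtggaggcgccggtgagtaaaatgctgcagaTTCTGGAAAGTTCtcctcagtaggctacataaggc
Hspe1: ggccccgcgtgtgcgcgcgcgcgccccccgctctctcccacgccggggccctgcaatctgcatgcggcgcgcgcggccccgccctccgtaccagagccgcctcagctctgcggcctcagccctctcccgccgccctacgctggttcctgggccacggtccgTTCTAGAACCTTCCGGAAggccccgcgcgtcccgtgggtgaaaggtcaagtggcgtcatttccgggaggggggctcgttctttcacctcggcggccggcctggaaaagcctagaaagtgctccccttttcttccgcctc
Of the list, 9 genes were matched and 4 of their 14 windows held these letters (28.6%), as did 198 of 32851 windows of all genes (0.603%). In the windows of Dnaja1 and Hspa1a these letters are not present.

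Hsph1, a large chaperone that recharges Hsp70, was at 246 CPM in DU101, 81.7 in DU102 and 208 in control. Its log2 ratio was -1.35 (-1.62 to -1.09) in DU102 over control and 1.59 (1.32 to 1.87) in DU101 over DU102. Within control it was at 259 CPM in the cells with Xist and 51.4 CPM in those with Y-linked RNA, so that against the Y-linked cells alone DU101 had 2.26 and DU102 had 0.67. Dnaja1, a co-chaperone of Hsp70, was at 898, 384 and 691 CPM, with -0.85 (-0.97 to -0.72) in DU102 over control and 0.68 against the Y-linked control cells. Hsp90aa1, an inducible Hsp90, was at 1288, 669.7 and 1122 CPM with -0.74 and 0.10. In DU101 over DU102, where nearly no cell of either library held Xist, the log2 ratios were 1.23 for Dnaja1 and 0.94 for Hsp90aa1. With Y-linked cells alone 11 genes of the list were higher too (314 of all 6314 genes).

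Stip1 and Cacybp, outside the list, were named because they stood among the 8 lowest genes in DU102 over control. Stip1, which links Hsp70 to Hsp90, was at 118, 53.3 and 110 CPM, with -1.05 in DU102 over control and -0.07 against the Y-linked control cells. Cacybp, an adaptor bound to such complexes, was at 280.0, 113 and 213 CPM with -0.92 and -0.03. Hspa1a and Hspa1b, the stress-inducible Hsp70 pair whose reads are hard to separate, were at 887, 401 and 599 CPM and at 1124, 636 and 781 CPM. Of 22 immediate-early genes, which tissue dissociation can also raise, 2 were called higher (3.94% of all genes) and 1 lower (4.01%) in DU101 over control. For DU102 over control 1 of 21 was higher (3.67%) and 5 were lower (2.47%). Jun, an AP-1 subunit, was at 844, 447 and 595 CPM and was called in DU101 over DU102 at 0.92 (0.79 to 1.04), and in DU101 over the Y-linked control cells at 0.75.

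**Figure D4:**
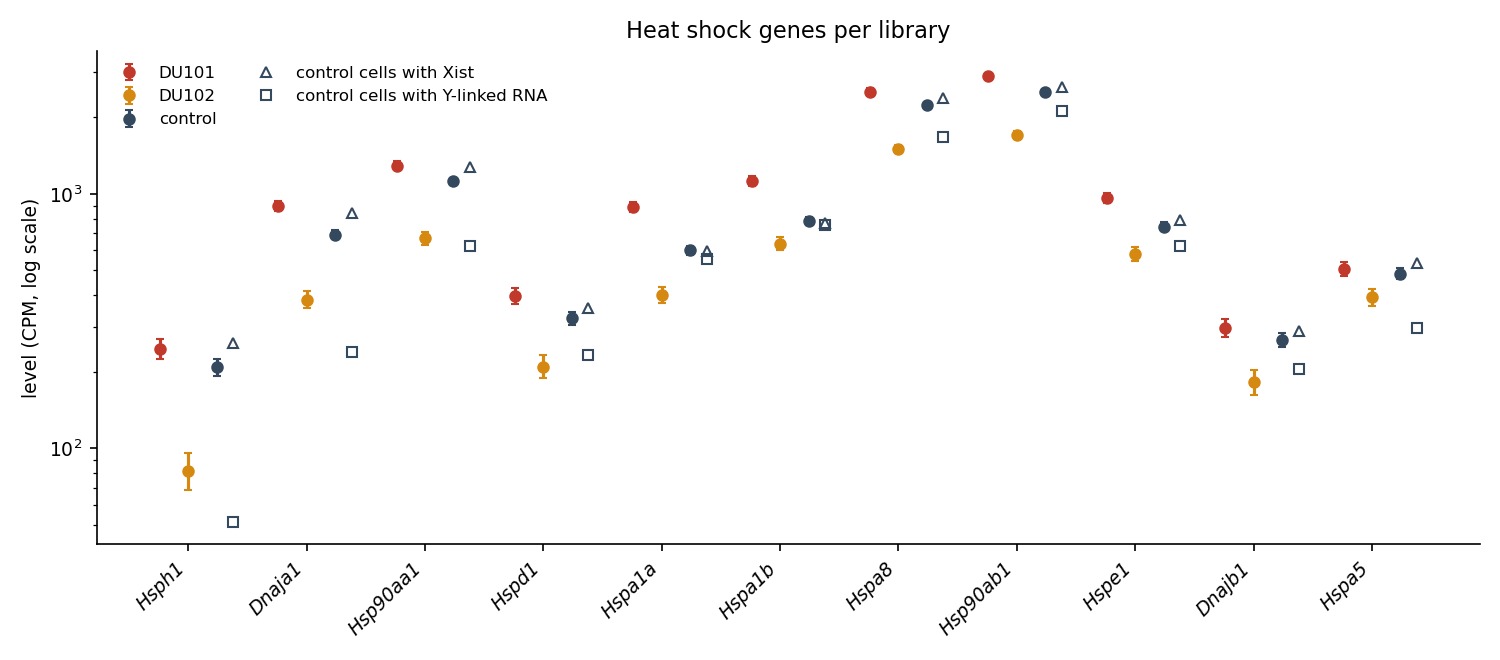
Summed CPM on a log axis of 11 heat shock genes in DU101, DU102 and control members, with control also split into its cells with Xist alone (triangles) and with Y-linked RNA alone (squares). For Hsph1 and Dnaja1 the DU102 value lies between these parts of control, and 11 genes are shown because 3 cells hold most UMIs of the remaining one, Hspb1, in DU102 and in control.

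The single genes below are a selection made with the values known. Rnaset2b, Itih5, Ms4a6c and Lars2 were ranked by the naming rule, and Gm42418 is one of its fixed check genes. H2-Eb1, given above, had rank 1 among genes higher in DU101 over control. The genes of ranks 1 and 2 among those higher in DU102 over control are not given. Rnaset2b, a lysosomal ribonuclease with a near copy, so that its reads are uncertain, was at 129 CPM in DU101, 15.9 in DU102 and 72.8 in control, with log2 ratios of 0.82 (0.56 to 1.08), -2.20 (-2.82 to -1.63) and 3.02 (2.45 to 3.64) in the 3 comparisons. It was low in DU102 CD8 T cells too, with -1.39 over control. Itih5, a hyaluronan-binding matrix protein, was at 18.8, 65.8 and 41.2 CPM, with -1.13 in DU101 and 0.67 in DU102 over control. Ms4a6c, of a family of membrane proteins found in myeloid cells, was at 129, 70.3 and 42.1 CPM with 1.61 and 0.74, and 3.41 and 2.54 over the Y-linked control cells. Lars2, the mitochondrial leucyl-tRNA synthetase, was at 522, 1264 and 1758 CPM, and Gm42418, a transcript that overlaps ribosomal RNA, at 13636, 36337 and 51562 CPM. Both were also lower in DU101 in CD8 T cells, with log2 ratios over control of -1.85 for each. Rpl29, a ribosomal protein gene chosen after its values were seen, was at 1002 CPM in DU101, 60.7 in DU102 and 62.6 in control, and its log2 ratio over control in CD8 T cells of DU101 was 3.68.

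Beside cells that met every other condition but had no Eomes UMI, 9 of 6365 genes measured in all 3 libraries were called higher in the members in each of them (0.141%) and 35 lower (0.55%). The rule used Eomes, so these values are a description. Klra4 and Klra8, the activating Ly49 receptors, were among those higher, 2 of 6 Ly49 genes measured. So were 3 of 8 neutrophil granule and marker genes measured, Ngp, Ltf and Camp, whose part in the comparison was not tested. Of 13 residency and ILC1 genes 6 were lower in the members, among them Cxcr6, the receptor that holds lymphocytes in liver sinusoids, at 9.93, 3.40 and 7.22 CPM in members and 56.9, 34.1 and 41.5 CPM in the cells without Eomes. Tmem176a, a membrane protein of ILC1, was at 16.2, 15.9 and 13.5 CPM and 90.2, 109 and 129 CPM.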

How the data were processed

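Live CD45+ cells of 3 libraries, 1 per group, were profiled with 10x 3' v3 chemistry. The deposited matrices are raw UMI counts per gene and barcode. Per the file headers, the authors made them with Cell Ranger 6.0.0; per the submitters' processing notes, with Cell Ranger 2.1.1 on mm10. No source used here names the annotation release. Barcodes numbered 15686 in DU101, 13650 in DU102 and 12639 in control, with 106604935, 96817875 and 91013198 UMIs. The authors' deposited tables of numbered clusters were not used. Some genes that the lists hold are not reported here and are not drawn.

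Members were found by the rule on raw UMIs given above, with doublets kept; Scrublet in scanpy 1.11.5 marked 15, 7 and 7 members. UMIs were summed over members per library and scaled to CPM, with exact conditional Poisson 95% intervals of ratios and a floor of 3 counts against 0. Sums measure the pool of cells, so a few cells rich in a gene can set a value. Shares used exact Clopper-Pearson intervals. Neutrophils and CD8 T cells were taken by their own UMIs. The calculation was checked on simulated Poisson counts, which have no added spread between cells, so the check does not cover such spread. The members, the gene lists and the comparisons were chosen with earlier results of these data known. Genes were named by rule: in each comparison the 8 highest and 8 lowest called genes by the interval end nearest to 1, with at least 50 CPM in the higher library and leaving out mitochondrial, ribosomal protein, haemoglobin, antibody and T cell receptor genes, numbered gene models, sex-linked genes, markers of other cells and the genes of the rule; the leading members of each list, every Ly49 gene, the neighbours on chromosome 6 and a fixed set of receptor, effector and check genes. Values are given for a selection of these, made with the values known, and Rpl29 was added after its values were seen. Promoter windows are RefSeq's on GRCm38.p6. Alternatives were another mitochondrial or gene limit, stricter and looser marker limits, doublets removed, thinning before the rule, TMM factors from edgeR 4.0.16, other totals, equal weight per cell, Y-linked cells, other UMI minimums and 2-fold. The work used R 4.3.3 and Python 3.11.15 with matplotlib 3.10.9, pandas 2.3.3, scipy 1.17.1 and numpy 2.4.6.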

Additional observations from a re-analysis of the deposited data

Results flagged for a closer look

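In 7 cases a gene was at least 1.5-fold apart in opposite directions in groups compared in the same way. None of these differences was itself tested, and no cause was tested.

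In DU102 over control, 3 genes went opposite ways against the separate parts of the control library. Hsph1 had a log2 ratio of -1.67 against control cells with Xist and 0.67 against control cells with Y-linked RNA. Dnaja1 had -1.13 and 0.68, and Ifi27l2a had -0.90 and 0.98.

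In the other 4 cases Eomes-expressing NK cells and other cells of the same libraries differed in direction. Klra3, in DU101 over control, had a log2 ratio of 0.91 in the members and -0.78 in CD8 T cells. Few CD8 T cells held any Ly49 RNA: at equal depth none was found in 96.4% of them in DU101 and 96.7% in control. Ccl4, in DU102 over control, had -1.43 in the members and 0.65 in CD8 T cells. Klre1, in DU101 over DU102, had 0.71 in the members and -0.79 in CD8 T cells. Isg15, in DU102 over control, had 0.66 in the members and -0.63 in NK cells without Eomes, and 3 cells held 32.7% of its UMIs in DU102 members.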

How the results depend on the processing

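With 1 library in a group no value has a replicate check, and counting intervals leave out differences between animals. With at least 100 UMIs, 318 genes were called in DU101 over control, 241 in DU102 over control and 357 in DU101 over DU102, where 653, 504 and 748 were called at 30; 4906, 4893 and 3918 genes were measured at 100, and 8214, 8210 and 7447 at 30. Sex of the control cells, RNA of other cell types and the small number of DU102 cells limit the comparisons in ways that were not tested. No paired analysis was possible because each group has 1 library and the libraries share just the number 1.

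Shares of members moved with the marker limits, in DU101, DU102 and control: Eomes at 2 UMIs or more gave 1.00%, 1.02% and 2.02%; no Eomes requirement 3.29%, 2.91% and 5.50%; Ncr1 and Klrb1c at 4 or more 1.47%, 1.47% and 3.01%; 0 UMIs of Cd3 genes 1.54%, 1.53% and 3.004%; residency genes absent 1.48%, 1.41% and 2.60%; thinning before the rule 0.825%, 0.655% and 1.18%; and under 2 UMIs of 8 genes of other cells 0.126%, 0% and 1.55%, so that no ratio with DU102 could be had there. At most 5% mitochondrial UMIs gave 3.92% in control. In each of these settings that gave a DU101 and a control share, the control share was the higher one.

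The number of genes called was 150, 92 and 129 after thinning before the rule and 240, 197 and 264 at 2-fold, for DU101 over control, DU102 over control and DU101 over DU102. It was 290 in DU101 over control with under 2 UMIs of other cells, which left 18 DU101 and 161 control members. In DU102 over control it was 758 with no UMI minimum. For the lists below, brackets give the calls in the same direction among all measured genes. The number of list genes measured in a setting is not given, so its counts cannot be set beside the main ones as shares. Interferon genes higher in DU101 over control were 9 with under 2 UMIs of other cells (208 of 4820), 5 after thinning (91 of 1771) and 8 at 100 UMIs (148 of 4906). In DU101 over DU102 they were 3 after thinning (80 of 1430), 5 at 100 UMIs (180 of 3918) and 3 at 2-fold (129 of 7447). Heat shock genes lower in DU102 over control were 1 against Y-linked control cells (152 of 6246) and 2 with Y-linked cells in every library (130 of 5595). They were 9 with TMM factors (251 of 8210) and 9 with the total free of ribosomal and mitochondrial UMIs (262 of 8210). Without each gene's 3 highest cells they were 8 (360 of 7529), and at 2-fold 1 (74 of 8210). Those higher in DU101 over DU102 were 7 after thinning (80 of 1430) and 4 at 2-fold (129 of 7447). Cytokine genes lower in DU102 over control were 1 with Eomes at 2 UMIs (193 of 6964), 2 with the NK genes at 4 (190 of 7965) and 3 without residency RNA (205 of 7560). They were 2 after thinning (40 of 1459), and 3 and 3 with Y-linked cells in control (152 of 6246) and in every library (130 of 5595). At 100 UMIs they were 2 (120 of 4893). The causes were not tested, apart from fewer cells or genes entering.

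Some called genes changed direction. In DU101 over control Cish was 0.18 and Bst2 -0.35 with under 2 UMIs of other cells (18 DU101 cells), Fos -0.13 after thinning and Ctla2a -0.014 with Y-linked cells in every library. In DU102 over control Hsph1, Dnaja1, Hsp90aa1 and Fkbp4 were 0.67, 0.68, 0.10 and 0.67 against Y-linked control cells, and 0.65, 0.58, 0.068 and 0.50 with Y-linked cells in every library. In DU101 over DU102 Klra9 was -0.073 and Serpina3g 0.14 after thinning. The settings without the 3 highest cells and without cells rich in RNA of other types were chosen after seeing the data.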
